A study of Mus musculus with 6 samples.

Results

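The miR-297, miR-466, miR-467 and miR-669 families are groups of near-identical microRNAs (miRNAs), most of which lie side by side in a single intron of the mouse gene Sfmbt2. They were taken by name as every mature miRNA of the deposited count table whose name starts with miR-297, miR-466, miR-467 or miR-669 followed by a letter or a hyphen. The rule gave 80 of 1974 mature miRNAs, with 6 of miR-297, 31 of miR-466, 13 of miR-467 and 30 of miR-669. There were 8 members with no count in any library, and the other 72 held 55 distinct patterns of counts. In 11 patterns several names had the same count in every library, which covered 28 names, and each pattern was counted once. miR-467a-5p stands here also for miR-467b-5p, miR-669a-5p for miR-669p-5p, miR-669a-3p for miR-669o-3p, miR-466b-5p for miR-466o-5p, and miR-466a-3p for the 3p arms of miR-466b, miR-466c, miR-466e and miR-466p. Likewise miR-297b-3p stands for miR-297a-3p and miR-297c-3p, and miR-669m-5p for miR-466m-5p. Members this alike can share reads, so values of single members are uncertain, and sums by family and arm are given beside them.

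Counts came from 6 small RNA libraries of heart cardiomyocytes from C57BL/6 mice, either wild type or lacking lncSync on both alleles (lncSync-/-), which the study compared as a long non-coding RNA knockout. Adults gave 2 wild-type and 2 knockout libraries. Embryos at day e13.5 gave 1 wild-type and 1 knockout library. The labels do not say how the allele was made, whether cells were sorted, or whether replicates were separate animals, so p-values measure only the spread between these libraries.

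A miRNA is cut from a hairpin precursor, whose arms give the 5p and the 3p product, and it finds its target messenger RNAs mainly through its seed, the bases 2 to 8 from its 5′ end. Sfmbt2 encodes a Polycomb-group protein and is imprinted, with expression from the paternal allele in early embryos and extraembryonic tissue. The miRNA cluster in its intron is found in rodents, is best known from embryonic stem cells and placenta, and grew by local duplication of units rich in UG and CA repeats.

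On GRCm38 (mm10), 81 hairpin genes of these families were annotated in GENCODE M21, and 71 of them lay inside Sfmbt2 (chr2:10370510-10595253, plus strand). All 71 lay in 1 intron (chr2:10461473-10523944, intron 10 of transcript Sfmbt2-201), within a span of 51617 bp. They comprised 5 hairpins of miR-297, 23 of miR-466, 14 of miR-467 and 29 of miR-669. In 11 places a miR-467, a miR-466 and a miR-669 hairpin followed each other in that order. The 10 copies of Mir467a were spaced by a median of 2462 bp, from 2413 to 4880 bp. The other 10 hairpin genes were spread over 7 chromosomes, and miR-466i, the most abundant member among them, comes from chromosome 13. Among the 80 names, 66 mapped only to the Sfmbt2 intron, 5 to the intron and elsewhere, and 9 only elsewhere.

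**Figure D1:**
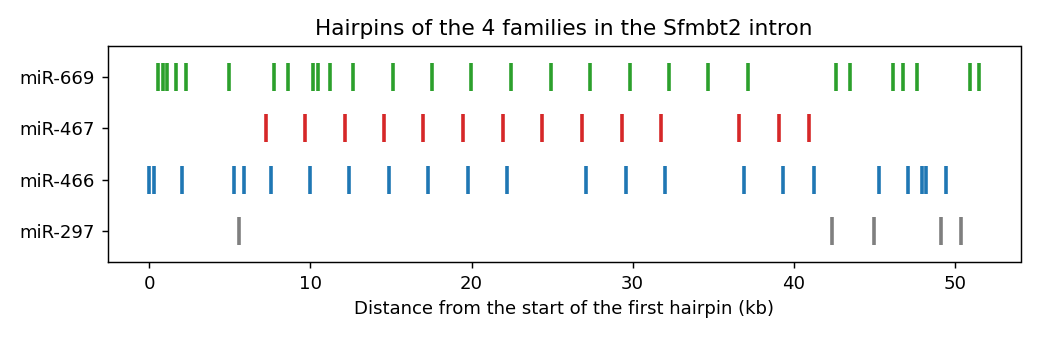
Position of each annotated hairpin of the 4 families in the Sfmbt2 intron, as distance in kilobases from the start of the first hairpin; each tick is 1 hairpin gene and each row 1 family. The 10 copies of Mir467a recur at a median spacing of 2462 bp, and miR-467, miR-466 and miR-669 hairpins follow each other in 11 places.

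RefSeq sequences (GRCm38.p6) were matched by name for 8 of the 80 members, all from hairpins outside Sfmbt2. They are shown as examples of the UG and CA repeats in members from outside Sfmbt2, with the seed in capitals:
miR-466i-3p: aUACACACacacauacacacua
miR-466j: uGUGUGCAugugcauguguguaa
miR-466k: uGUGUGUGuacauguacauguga
miR-466q: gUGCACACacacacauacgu
miR-467f: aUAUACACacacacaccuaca
miR-467g: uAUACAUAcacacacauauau
miR-467h: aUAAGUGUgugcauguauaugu
miR-669n: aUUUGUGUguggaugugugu

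These mature sequences map to chr13:17747552-17747573 (miR-466i-3p), chr10:60960802-60960824 (miR-466j), chr3:85467396-85467418 (miR-466k), chr3:28419988-28420007 (miR-466q) and chr3:115979905-115979924 (miR-669n), on the plus strand. miR-467h lies at chr9:115381898-115381919 on the plus strand, and miR-467f (chr11:69635419-69635439) and miR-467g (chr5:34732872-34732892) lie on the minus strand. All 8 seeds differed. The letters UGUGUGU or ACACACA, searched on the RNA strand only, were found in 7 of the 8 mature sequences and in 0.539% of the mature RefSeq sequences outside the families. The hairpin of miR-466k (chr3:85467377-85467498) is shown with its mature arm in capitals, because few of its reads were counted to that arm:
mir-466k: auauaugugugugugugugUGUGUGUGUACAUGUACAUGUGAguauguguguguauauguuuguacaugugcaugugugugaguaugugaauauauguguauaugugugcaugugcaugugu

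An unbroken run of alternating U and G covered bases 6 to 28 of this hairpin, counted from its 5′ end, and the mature arm covered bases 20 to 42, so that the arm starts inside the run.

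Total mature counts ranged from 14360911 to 17950660 over the adult libraries. The e13.5 wild type held 8977827 and the e13.5 knockout 2677260. Of the 5 cardiac muscle miRNAs used as markers all were detected in every library, at a summed 268018 to 385087 CPM (counts scaled to each library's mature total) in adults, 145403 at e13.5 in wild type and 98316 in the e13.5 knockout. At an edgeR adjusted p below 0.05 by stage, 3 of the 5 were lower at e13.5 and 1 was higher (log2 4.53). Smooth muscle and fibroblast miRNAs (4 of 4 detected) summed to 72883 to 116305 CPM in adults, 351346 in the e13.5 wild type and 212106 in the e13.5 knockout. That sum was mostly miR-143-3p (log2 0.54 by stage, edgeR adjusted p = 0.397), and the other 3 fell at e13.5. Erythroid miRNAs (3 of 3) summed to 5547 to 21780 CPM in adults, 726 in the e13.5 wild type and 14174 in the e13.5 knockout. The single erythroid miRNAs did not all follow the sum, as 2 of the 3 were higher at e13.5 and 1 was lower (log2 −3.77), at an edgeR adjusted p below 0.05. Leukocyte miRNAs (4 of 4) summed to 848 to 1692 CPM in adults and to 52.2 and 103 CPM at e13.5, and endothelial miRNAs (2 of 2) to 16310 to 31025 CPM in all libraries. Pluripotent-cell and trophoblast miRNAs were detected for 2 or 3 of 13 in adults, at a summed 0.297 to 1.74 CPM, and for 9 and 11 of 13 at e13.5, at 135.9 and 106 CPM. These lists differ between stages together with the families described here, and their part in the results was not tested.

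Together the families were rare in adult cardiomyocytes and more abundant at e13.5. Their summed level in CPM was 67.2 and 61.5 for adult wild type, 70.8 and 43.1 for adult knockout. At e13.5 it was 727 with the wild-type genotype and 1008 without lncSync. Both e13.5 libraries lay above all adult libraries. The adult mean was 60.7 ± 12.3 CPM (SD, n = 4), and the mean of the e13.5 libraries was 14.3 times as high. CPM here are scaled by library totals only. The stage fit below also uses scaling factors of the TMM method (trimmed mean of M values). These were 1.30 and 2.15 for the e13.5 wild type and knockout, and 0.562 to 0.952 for adults. With them the ratio would be smaller, and the e13.5 knockout sum would not be above the wild type. The exact two-sided permutation test over libraries gave p = 0.0667, the smallest value that 2 libraries against 4 can give. As a share of mature counts the members took 0.00431% to 0.00708% in adults, 0.0727% in the e13.5 wild type (Wilson 95% interval 0.0710% to 0.0745%) and 0.101% in the e13.5 knockout (0.0970% to 0.105%). In bulk RNA, fewer cells of a type and less RNA per cell cannot be told apart.

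**Figure D2:**
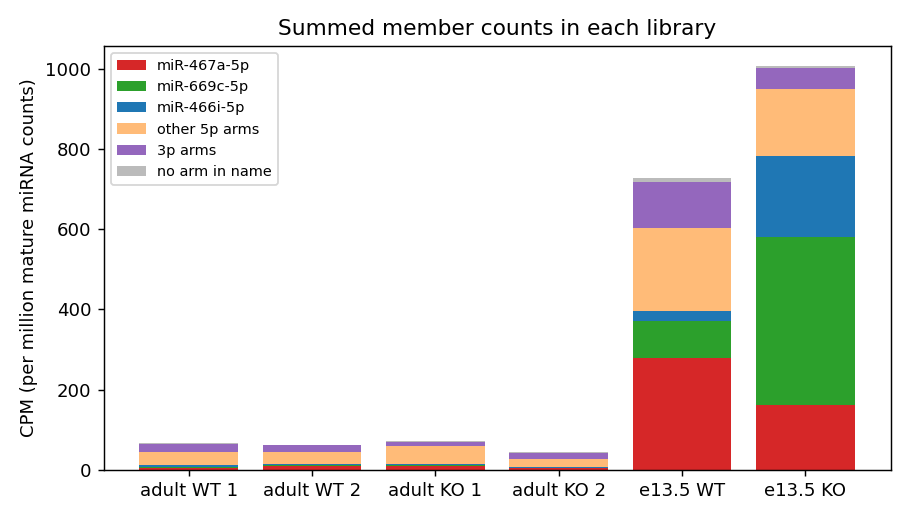
Summed member counts in each of the 6 libraries, in CPM of all mature miRNA counts; colours show miR-467a-5p, miR-669c-5p, miR-466i-5p, all other 5p arms, all 3p arms and members with no arm in their name. The 2 e13.5 libraries reach 727 and 1008 CPM, and all adult libraries stay at or below 70.8 CPM.

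The makeup of the total differed between the e13.5 libraries. In the e13.5 wild type miR-467a-5p took 38.5% of member counts, miR-669c-5p 12.6% and miR-466i-5p 3.45%. In the e13.5 knockout miR-669c-5p took 41.7%, miR-466i-5p 20.1% and miR-467a-5p 16.01%. In adults miR-467c-5p led in 3 libraries and miR-467a-5p in wild-type replicate 2. Without miR-669c-5p and miR-466i-5p the sum was 41.3 to 65.6 CPM over the adults, and 610 (wild type) and 385 CPM (knockout) at e13.5, a ratio of stage means of 8.94.

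Members mapped only to the Sfmbt2 intron gave most of the sum, with 55.6 ± 11.03 CPM in adults (SD, n = 4) and 672 and 790 CPM in the e13.5 libraries. Members from hairpins elsewhere, chiefly miR-466i-5p, summed to 4.14 ± 1.41 CPM in adults (SD, n = 4), and at e13.5 to 30.0 CPM with the wild-type and 207 CPM with the knockout genotype. The 5p arms made up 63.4% to 83.1% of member counts in adults, 83.0% in the e13.5 wild type and 94.4% in the e13.5 knockout.

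Stage was tested in all 6 libraries together, with genotype as a covariate, by edgeR's quasi-likelihood test with Benjamini-Hochberg adjustment over 686 miRNAs. Of these, 29.3% were higher and 29.3% lower at e13.5 at an adjusted p below 0.05, or 58.6% in either direction, so a call by itself was common. Of the 55 members 32 passed the filter on low counts, and they held 98.6% of member counts. The other 23 had totals of 1 to 28 counts. Of the 32 tested, 15 were higher at e13.5, 1 was lower and 16 did not pass. The median log2 difference, e13.5 over adult, was 2.69 for the members and −0.09 for all 686 miRNAs. Of the 5p arms 12 of 19 tested were higher and 1 was lower, and of the 3p arms 2 of 11 were higher. By family, 7 of 13 members of miR-466 rose, 5 of 11 of miR-669, 3 of 6 of miR-467, where 1 more fell, and 0 of 2 of miR-297. Several members passed the filter only through their e13.5 counts, so these counts describe the members tested and not the families as a whole. Without the e13.5 wild-type library 5 of 29 members were higher (17.2%), against 16.7% of all miRNAs, and without the e13.5 knockout library 6 of 35 (17.1%), against 16.1%, so in both fits the members were called about as often as miRNAs in general. Without adult wild-type replicate 1, 9 of 32 were higher (28.1%), against 23.8% of all.

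Sums by family and arm were formed after the data were seen, and the 5p sums of miR-669, miR-466 and miR-467 and the 3p sum of miR-467 passed. The miR-669 5p sum was 4.65 to 14.3 CPM in adults and 194 and 520 CPM in the e13.5 libraries, and it rose by a log2 of 4.10 (SE 0.49, edgeR adjusted p = 0.000220). The miR-466 5p sum was 1.64 to 6.41 CPM in adults and 69.8 and 230 CPM at e13.5, with a log2 difference of 3.82 (SE 0.61, edgeR adjusted p = 0.00105). The miR-467 5p sum was 20.9 to 38.2 CPM in adults and 199 and 336 CPM at e13.5, with a log2 difference of 2.24 (SE 0.51, edgeR adjusted p = 0.00586). All 3 sums were above every adult library in both e13.5 libraries. The miR-467 5p sum did not pass without the e13.5 wild-type library (log2 1.48, edgeR adjusted p = 0.0879).

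Among the 3p arms, the miR-467 sum rose by a log2 of 2.65 (SE 0.93, edgeR adjusted p = 0.0381). That call was lost without either e13.5 library or either adult wild-type library, with edgeR adjusted p from 0.0623 to 0.256 in those fits. The miR-466 3p sum was 6.52 to 9.40 CPM in adults and 17.2 and 36.2 CPM at e13.5, with a log2 difference of 0.64 (edgeR adjusted p = 0.375). The miR-669 3p sum was 1.88 to 5.95 CPM in adults and 7.10 and 17.9 CPM at e13.5, with a log2 difference of 0.35 (edgeR adjusted p = 0.709). Their log2 differences are smaller than the CPM ratios because the scaling factors of the TMM method (trimmed mean of M values) were 1.30 and 2.15 for the e13.5 libraries and 0.562 to 0.952 for adults. The miR-297 5p and 3p sums had log2 differences of 3.79 and 2.89 (edgeR adjusted p = 0.0677 and 0.0771). The difference between arms was not itself tested.

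**Figure D3:**
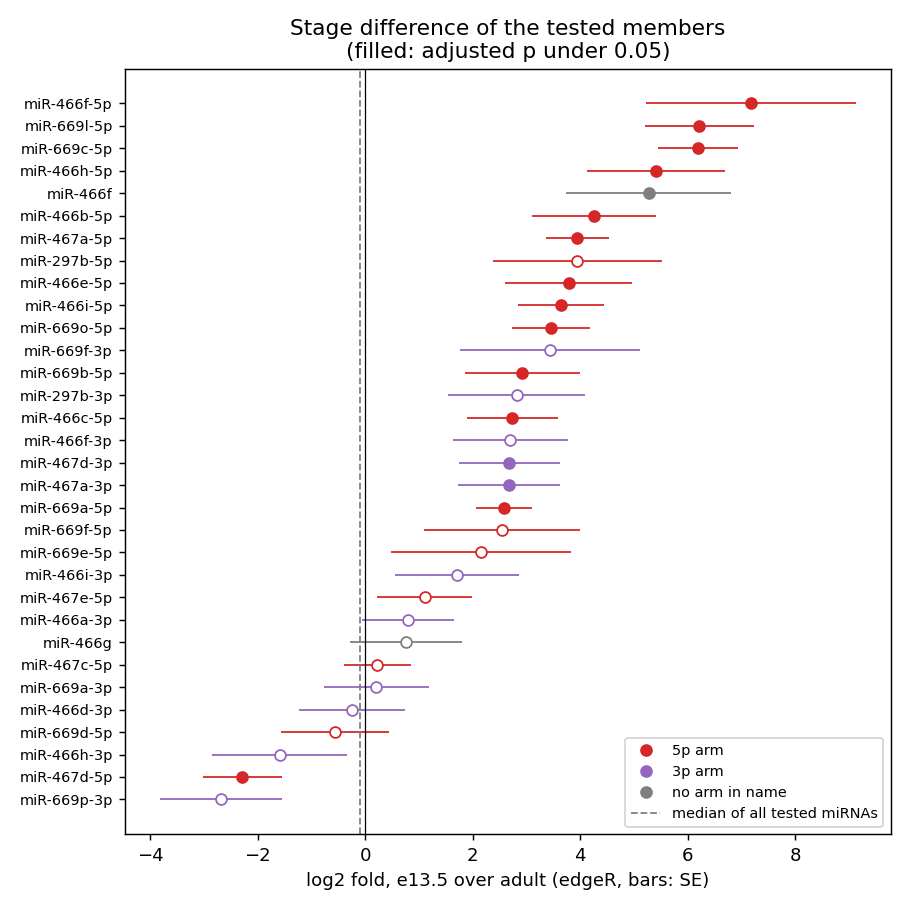
Log2 difference between e13.5 and adult for the 32 members tested (horizontal axis, edgeR, all 6 libraries), with bars of 1 SE; filled points have an adjusted p below 0.05 and the dashed line is the median of all 686 miRNAs, −0.09. The 15 filled points to the right are 12 5p arms, 2 3p arms and miR-466f, and the filled point to the left is miR-467d-5p.

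The miR-467 5p arms held both the member with the most counts in all and the 1 that fell. miR-467a-5p was at 5.01 and 8.09 CPM in adult wild types and at 10.03 and 4.42 CPM in adult knockouts. At e13.5 it reached 280 CPM (2514 counts) in wild type and 161 CPM (432 counts) in the knockout. Both e13.5 libraries stood far above all adults. After TMM scaling it was 8.71 ± 2.45 CPM in adults (SD, n = 4) and 145 ± 98.8 CPM at e13.5 (SD, n = 2), a log2 difference of 3.95 (SE 0.58, edgeR adjusted p = 0.000661). Each SD spans both genotypes, and the e13.5 SD comes from a single library of each. miR-467a-5p ranked 105th of the mature miRNAs in the e13.5 wild type.

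miR-467d-5p went the other way. Its counts were 131 and 132 in the adult wild types, 140 and 94 in the adult knockouts, and 36 and 6 in the e13.5 wild type and knockout. Both e13.5 libraries, at 4.01 and 2.24 CPM, lay below the adult range of 5.33 to 9.75 CPM. It fell by 2.28 on the log2 scale (SE 0.74, edgeR adjusted p = 0.0279), a call that held in 6 of 15 other settings and was lost with median-of-ratios factors (log2 −1.50, edgeR adjusted p = 0.0993).

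The arms of the miR-467d hairpin changed places in rank. Its 5p arm gave 73.2% and 93.6% of the counts of both arms in the adult wild types, 97.2% and 78.3% in the adult knockouts, 14.9% in the e13.5 wild type and 15% in the e13.5 knockout. Adult and e13.5 shares did not overlap. The 3p counts used here, 48, 9, 4 and 26 in adults and 205 and 34 at e13.5, were within 1 count of those of miR-467a-3p in every library. The 3p reads may therefore be shared with miR-467a, whose own 5p share was 92.5% and 92.7% at e13.5.

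miR-467d-3p and miR-467a-3p each had a log2 difference of 2.68 (SE 0.94, edgeR adjusted p = 0.0370 and 0.0371), and with counts this close they may hold the same reads. With names within 1% of each other merged as well, 14 members were higher at e13.5. miR-467c-5p was high at both stages, with 153, 122, 255 and 103 counts in adults and 215 and 54 at e13.5 (log2 0.23, SE 0.63, edgeR adjusted p = 0.772). miR-467e-5p had 106 and 98 counts in the adult wild types, 10 and 93 in the adult knockouts, and 255 and 42 at e13.5 (log2 1.11, SE 0.88, edgeR adjusted p = 0.295). In CPM, adult knockout replicate 1 was the lowest adult library for miR-467e-5p and the highest for miR-467a-5p, miR-467c-5p and miR-467d-5p.

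Of the miR-669 5p arms, miR-669c-5p had a large difference in counts. It was counted 39 and 43 times in the adult wild types, 14 and 12 times in the adult knockouts, 825 times in the e13.5 wild type and 1124 times in the e13.5 knockout. The e13.5 levels of 91.9 and 420 CPM compare with 0.681 to 2.56 CPM in adults. The log2 difference was 6.20 (SE 0.74, edgeR adjusted p = 0.000229), and miR-669c-5p ranked 100th in the e13.5 knockout.

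miR-669l-5p was almost absent from adults, with 3, 0, 6 and 1 counts, against 187 and 64 at e13.5. It rose by a log2 of 6.22 (SE 1.01, edgeR adjusted p = 0.00115). miR-669o-5p had 10, 11, 38 and 14 counts in adults and 175 and 67 at e13.5 (log2 3.46, SE 0.73, edgeR adjusted p = 0.00419). In both members the e13.5 libraries were above all adults.

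miR-669a-5p had 82, 66, 48 and 32 counts in adults and 408 and 104 at e13.5, or 1.81 to 4.57 CPM against 45.4 and 38.8 CPM. It rose by a log2 of 2.59 (SE 0.52, edgeR adjusted p = 0.00314). miR-669b-5p, with 1 to 9 counts in adults and 44 and 14 at e13.5, rose by 2.93 (SE 1.08, edgeR adjusted p = 0.0435). Across all 15 other settings, the 4 members called each time were miR-467a-5p, miR-669a-5p, miR-669c-5p and miR-669l-5p.

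The opposite arm by name, miR-669a-3p, moved less. miR-669a-3p had 55, 73, 8 and 47 counts in adults and 109 and 8 at e13.5. In CPM adult knockout replicate 1 was low (0.557), and the e13.5 knockout (2.99) lay within the range of the other adults (2.67 to 4.34). Its log2 difference was 0.21 (SE 0.97, edgeR adjusted p = 0.867). The 5p share under the name miR-669a was 59.9% and 47.5% in the adult wild types, 85.7% and 40.5% in the adult knockouts, and 78.9% and 92.9% at e13.5. These shares overlapped between stages through adult knockout replicate 1. The name miR-669a covers 12 hairpin genes. Its 5p counts are also those of miR-669p-5p and its 3p counts those of miR-669o-3p, so the share can mix arms of different hairpins. miR-669p-3p had 36, 19, 18 and 18 counts in adults and 4 and 1 at e13.5, below all adults in CPM (log2 −2.68, SE 1.13, edgeR adjusted p = 0.0683).

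Of the 8 miR-466 5p patterns 6 were tested and all 6 rose, where 29.3% of all miRNAs did. Levels were low apart from miR-466i-5p from chromosome 13. miR-466b-5p, miR-466e-5p, miR-466f-5p and miR-466h-5p had 0 to 10 counts in each adult library and passed the filter through their e13.5 counts. Their direction followed largely from the filter, so the count of 6 carries little weight. miR-466i-5p was at 4.01 and 4.28 CPM in the adult wild types (72 counts each) and at 4.25 and 1.08 CPM in the adult knockouts (61 and 19 counts). At e13.5 it was at 25.1 CPM in wild type and 203 CPM in the knockout. Both e13.5 libraries were above all adults, and the knockout was the higher by far. The log2 difference was 3.65 (SE 0.80, edgeR adjusted p = 0.00481), and without the e13.5 knockout library it was 1.90 (edgeR adjusted p = 0.116).

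miR-466c-5p had 20, 19, 30 and 4 counts in adults and 190 and 25 at e13.5 (log2 2.74, SE 0.85, edgeR adjusted p = 0.0240). miR-466h-5p had 4, 0, 0 and 1 counts against 49 and 22 (log2 5.41, SE 1.28, edgeR adjusted p = 0.00714). miR-466b-5p had 10, 1, 0 and 2 counts against 84 and 11 (log2 4.26, SE 1.15, edgeR adjusted p = 0.0131). Each was above all adults at e13.5, on few adult counts.

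miR-466e-5p, with 5, 4, 0 and 2 counts in adults and 41 and 11 at e13.5, rose by 3.79 (SE 1.18, edgeR adjusted p = 0.0244). miR-466f-5p was at 0 in all adult libraries and had 32 and 3 counts at e13.5, which makes it at least 66.8-fold higher at e13.5 over the pooled libraries, against a floor of 3 counts over the adult group. Its adjusted p by edgeR was 0.0250. miR-466f had 2, 0, 0 and 0 counts in adults and the same e13.5 counts as miR-466f-5p (log2 5.27, SE 1.54, edgeR adjusted p = 0.0184), so both may hold the same reads. With miR-466f-5p set to its bound, the median of the tested members was still 2.69.

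The 3p arms of miR-466 did not pass. miR-466a-3p had 60, 66, 17 and 60 counts in adults and 168 and 16 at e13.5 (log2 0.80, SE 0.86, edgeR adjusted p = 0.442). miR-466d-3p had 40, 64, 55 and 39 counts against 91 and 4 (log2 −0.25, SE 0.98, edgeR adjusted p = 0.844). In both, the e13.5 wild type was the highest of the 6 libraries in CPM, and for miR-466d-3p the e13.5 knockout was the lowest. miR-466f-3p (log2 2.70, SE 1.07, edgeR adjusted p = 0.0563) and miR-466i-3p (log2 1.71, SE 1.16, edgeR adjusted p = 0.227) were above all adults in both e13.5 libraries. miR-466h-3p had a log2 difference of −1.59 (SE 1.25, edgeR adjusted p = 0.291).

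The miR-297 family was the rarest. miR-297b-3p had 19, 4, 0 and 7 counts in adults and 121 and 5 at e13.5 (log2 2.82, SE 1.27, edgeR adjusted p = 0.0838). miR-297b-5p had a log2 difference of 3.95 (SE 1.57, edgeR adjusted p = 0.0569). Both passed when adult knockout replicate 1 or 2 was left out, with library totals and with median-of-ratios factors.

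**Figure D4:**
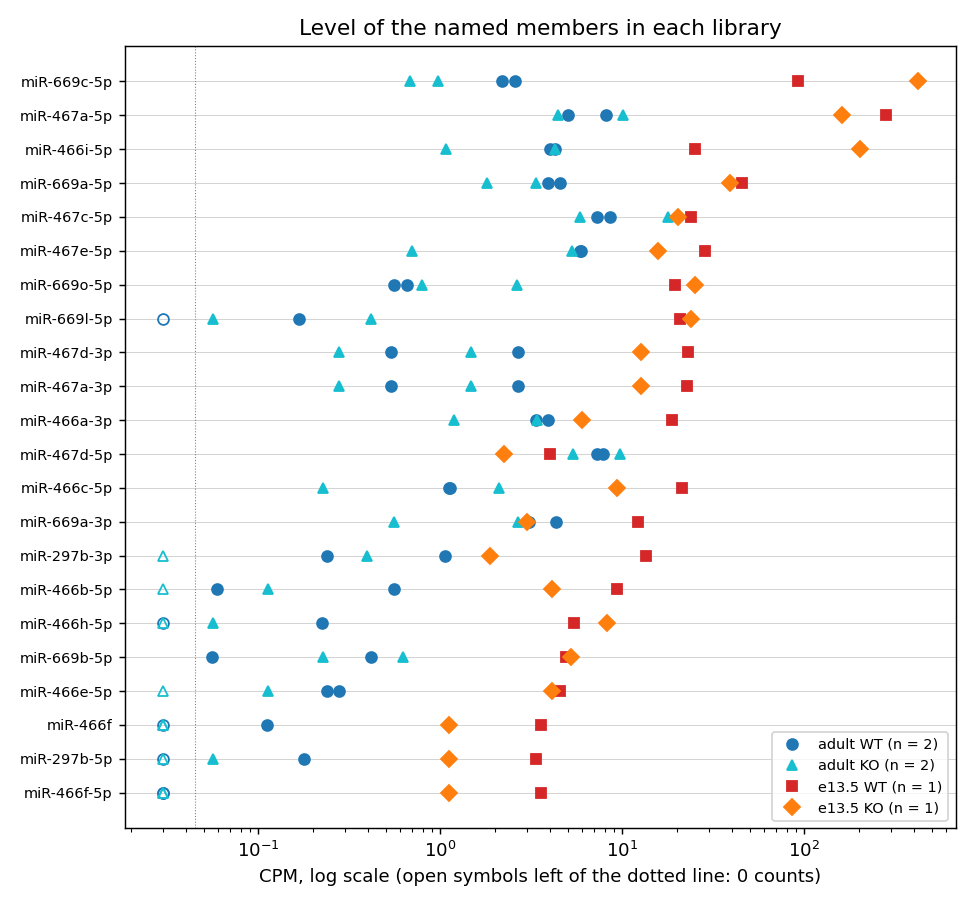
CPM of 22 members in each of the 6 libraries, on a log axis; each point is 1 library, coloured by stage and genotype, and open points left of the dotted line had 0 counts. miR-467a-5p and miR-669c-5p stand at 280 and 420 CPM in 1 e13.5 library each, and miR-467d-5p is lower in both e13.5 libraries than in every adult library.

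The call rate of all miRNAs moved with the scaling. Of all calls, 50% were higher at e13.5 with TMM, 68.7% with library totals and 64.2% with median-of-ratios factors, and the median log2 of all miRNAs moved from −0.09 to 0.96 and 0.68. The members' median moved with it, to 3.82 and 3.48. Under both alternatives no member was lower at e13.5, and 21 and 18 were higher. Non-overlap of the 2 stages in TMM-scaled CPM was seen in 20 members with both e13.5 libraries above all adults and 2 below, where 36.9% and 37.3% of all tested miRNAs met these rules.

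Other miRNAs known from imprinted loci or early embryos were read from the same fit. Of 68 imprinted miRNAs outside the families 58 were tested and 47 were higher at e13.5, with a median log2 of 4.73. Of all 686 miRNAs 29.3% were higher, with a median of −0.09. miR-541-5p of the Dlk1-Dio3 locus had 205 to 553 counts in adults and 38011 and 25724 at e13.5 (log2 7.28, SE 0.50, edgeR adjusted p = 7.45e-05), and miR-127-3p of the same locus had a log2 difference of 4.75. Of the 26 arms of the pluripotency clusters 11 passed the count filter, 6 of them at 0 in all adults, so their direction followed from the filter and their count carries no weight. miR-302b-3p had 1, 0, 0 and 3 counts in adults and 414 and 73 at e13.5, and miR-302a-5p 2, 0, 0 and 0 against 221 and 107. Of 9 miRNAs outside the families whose sequence holds UGUGUGU or ACACACA, 5 were tested and 4 were higher, 2 of them at 0 in all adults. Of the others, miR-672-5p had a log2 difference of 7.16 and miR-574-5p one of 2.79. miR-32-3p, which did not pass, went the other way (log2 −2.78, edgeR adjusted p = 0.0704). miR-294-3p, at 0 in all adults, is in this list and also in that of the pluripotency clusters.

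Genotype was tested in the 4 adult libraries over 551 miRNAs, of which 0% were higher and 0.726% lower in the knockout by edgeR. Of the members 18 were tested and 0 passed, with 0 at an unadjusted p under 0.05 and 0 by DESeq2 or limma. Their median log2 difference, knockout over wild type, was −0.17, against 0.09 for all miRNAs. It ranged from −1.31 for miR-669c-5p (SE 0.88) to 1.56 for miR-669o-5p (SE 1.06), with an edgeR adjusted p of 0.9996 for each of the 18.

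Both adult knockouts lay below both wild types for miR-669c-5p and miR-669a-5p in TMM-scaled CPM, and above them for miR-467c-5p and miR-669o-5p. Such order was seen for 11.8% (below) and 9.98% (above) of all 551 miRNAs. Knockout replicate 1 was lower than the other adults for miR-467e-5p, miR-669a-3p and miR-466a-3p, at 10, 8 and 17 counts. With knockout replicate 2 left out, miR-467e-5p (log2 −3.27, edgeR adjusted p = 0.00293) and miR-669a-3p (log2 −2.94, edgeR adjusted p = 0.0314) passed, so those values rest on knockout replicate 1 alone. In that fit 2 of 24 members were lower (8.33%), against 4.91% of 652 miRNAs.

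At e13.5 the genotypes could be described but not tested, with 1 library each. Over the 571 miRNAs that reached 10 counts in one library or both, 10.5% were at least 4-fold higher in the knockout after TMM scaling, and 6.48% were lower by 4-fold or more. Of 32 members measured, 1 met the first limit and 6 the second. Of the 6, 2 were at 0 in the knockout, so that their size was set by the prior count and is given as a bound. With counts in both libraries 4 members (12.5%) and 4.03% of all miRNAs were lower by 4-fold or more. The knockout value was the lower one for 27 of the 32, where 53.4% of all miRNAs were lower. The members' median log2 difference was −1.27, against −0.11 for all miRNAs. The wild-type library was the deeper one, so rare members could reach 10 counts through it alone. These numbers therefore describe only the members measured. With library totals 23 of the 32 were lower, with medians of −0.81 for members and 0.36 for all. With TMM factors of all 6 libraries 30 were lower. With 50 counts required, 14 of 16 members were lower, with medians of −1.19 and −0.04.

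The most abundant members did not move alike. miR-466i-5p was at 25.1 CPM in wild type and 203 CPM in the knockout, a CPM ratio of 8.09 (95% counting interval 6.92 to 9.50). miR-669c-5p was at 91.9 and 420 CPM, a ratio of 4.57 (4.17 to 5.004). miR-467a-5p was at 280 and 161 CPM, a ratio of 0.576 (0.519 to 0.638), and miR-669a-5p was at 45.4 and 38.8 CPM, a ratio of 0.855 (0.682 to 1.06). These ratios are before TMM scaling. After it the log2 differences of these members were 2.52, 1.71, −1.28 and −0.70, in the same order, so miR-669c-5p did not reach the 4-fold limit. From the highest of 571 miRNAs, miR-466i-5p ranked 36th and miR-669c-5p 70th.

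The 4 members with counts in both libraries that were lower by 4-fold or more after TMM scaling were 3p arms, of 9 3p arms measured. Before that scaling, the wild-type CPM was 7.22 times that of the knockout for miR-297b-3p (95% counting interval 3.01 to 22.6), 6.78 times for miR-466d-3p (2.56 to 25.4), 4.06 times for miR-669a-3p (1.99 to 9.65) and 3.13 times for miR-466a-3p (1.87 to 5.604). miR-466k and miR-669m-5p were at 0 in the knockout and, against a floor of 3 counts, were at least 1.89-fold and 1.09-fold lower there. The e13.5 libraries also differed in depth and in the erythroid and cardiac sums given above, and the part of these in the differences was not tested.

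**Figure D5:**
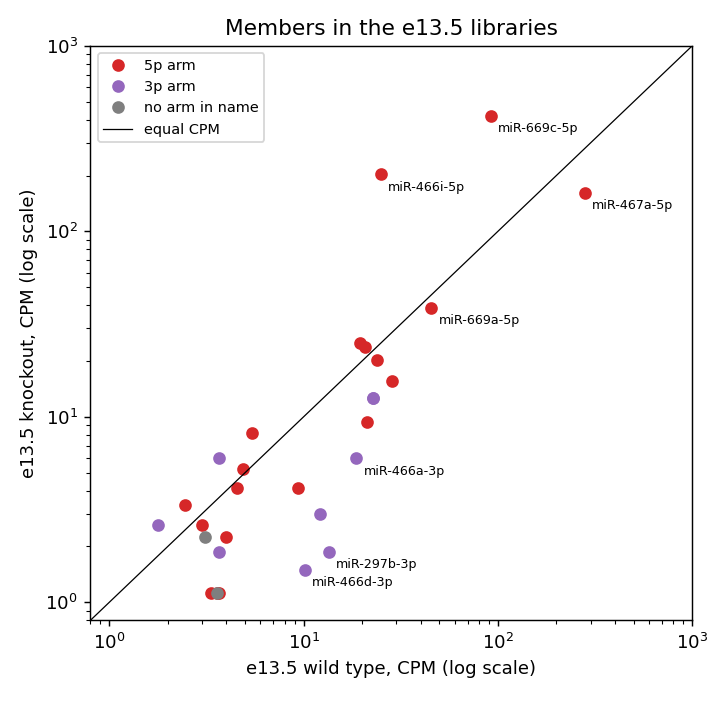
CPM of each measured member in the e13.5 knockout (vertical) against the e13.5 wild type (horizontal), both on log axes; each point is 1 member, the diagonal marks equal CPM, and members at 0 in the knockout are not drawn. miR-466i-5p (25.1 and 203 CPM) and miR-669c-5p (91.9 and 420 CPM) lie above the diagonal and miR-467a-5p (280 and 161 CPM) below it.

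Whether the genotype difference changed with stage was tested over 775 miRNAs, with a spread that came from the adult replicates only. Of all miRNAs 0% passed by edgeR, and of 35 members 0 passed by edgeR, DESeq2 or limma, with 2 at an unadjusted p under 0.05. These were miR-669c-5p (log2 2.85, SE 1.02, edgeR adjusted p = 0.770) and miR-466i-5p (log2 2.96, SE 1.19, edgeR adjusted p = 0.770). For miR-669c-5p the adult knockouts had 14 and 12 counts against 39 and 43 in wild type, and the e13.5 knockout had the higher CPM. With adult knockout replicate 1 left out both passed (edgeR adjusted p = 0.0250 and 0.00535), and with replicate 2 left out miR-669c-5p did (edgeR adjusted p = 0.0258). In these fits 12.5% and 5.4% of all miRNAs passed in either direction, against 5.71% and 2.94% of the members. A single e13.5 library per genotype is assumed there to vary like the adults.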

How the data were processed

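The authors deposited whole-number read counts per miRNA, 1 column per library and not normalised, with hairpins and mature miRNAs in the same table (1234 and 1974 of 3208 features). The NEXTFLEX Small RNA kit was used, per the labels. The submitters' processing notes name mm10. Aligner, counter and rule for multi-mapping reads were not given in the sources used here. Columns belonging to other samples numbered 0.

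Mature counts were used, and names with the same counts in every library were merged, which left 1952 miRNAs. Outside the families a merge also required at least 20 counts and 3 libraries with counts. Tests used edgeR 4.0.16 in R 4.3.3 (TMM, filterByExpr with a minimum count of 10, quasi-likelihood, two-sided, threshold 0.05). The stage and adult fits were tested on simulated data. DESeq2 1.42.0 and limma 3.58.1 were alternatives. At e13.5, TMM-scaled CPM were compared on the log2 scale after adding a prior count of 2. A floor of 3 counts was 0.167 to 0.209 CPM in adults, 0.334 in the e13.5 wild type and 1.12 in the e13.5 knockout. These floors and all counting intervals hold for counting error alone.

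Members named are the 12 of highest mean CPM, those past the threshold, and the most abundant of each family and arm, with the 2 most abundant of each comparison list. Other members and list miRNAs are named where they bear on a count or stand apart, chosen after their values were seen. Sums over shared seeds were planned but were not run, since 8 of 80 members had a sequence here. Sums by family and arm took their place. The members and lists were chosen with earlier results of these data known.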

Additional observations from a re-analysis of the deposited data

Results flagged for a closer look

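For 3 members the adult knockouts both lay on one side of the wild types and the e13.5 knockout on the other, after TMM scaling. That is 3 of the 16 members in both comparisons (18.8%), against 11.7% of 436 miRNAs. These differences between stages in direction are untested in that form, and the fit of the difference passed for none. At e13.5 the knockout over wild-type log2 difference was 1.71 for miR-669c-5p, where both adult knockouts were below both wild types. It was −0.72 for miR-467c-5p and −0.12 for miR-669o-5p, where both adult knockouts were above both wild types. The sign for miR-669o-5p turns with the scaling, to 0.36 with library totals. With 1 e13.5 library per genotype, each direction there rests on 1 pair.

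Some reads were counted to a hairpin but not to its named mature miRNAs, so they are absent from the mature counts used above. Their number is the hairpin count less those mature counts, and read positions were not seen. For mir-466h in adult wild-type replicate 1 it was −3, so the counts are not strictly nested. mir-466q, mir-466k and mir-467f have no separate 5p and 3p names, so reads of an unnamed arm would fall here. In 4 hairpins such reads came to at least 100 over all libraries and to more than 50% of the hairpin's reads. In the e13.5 libraries such reads of these 4 hairpins were above the floor of 3 counts. For mir-466q they numbered 211, 207, 188 and 55 in adults, 766 in the e13.5 wild type and 3160 in the e13.5 knockout, and made up 99.4% of all its reads. In CPM of mature counts that is 3.12 to 13.1 in adults, 85.3 in the e13.5 wild type and 1180 in the e13.5 knockout. mir-466k had 77, 68, 71 and 19 such reads in adults, 345 in the e13.5 wild type and 668 in the e13.5 knockout. mir-669h had 59, 11, 0 and 10 in adults, and 82 and 64 at e13.5. mir-467f had 4, 1, 0 and 4 in adults, and 50 and 43 at e13.5. What these reads are was not tested.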

How the results depend on the processing

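The summed level of the families was higher at e13.5 in all 9 other settings, with log2 ratios of 3.61 to 4.08 when 1 library was left out. The number of members higher at e13.5 ran from 5 to 20 over the fits without 1 library, and the number lower from 0 to 1. At the low end, without an e13.5 library, 17.2% and 17.1% of members were higher, against 16.7% and 16.1% of all miRNAs. The 1 member lower at e13.5 became 0 with median-of-ratios factors, library totals, DESeq2, wild-type libraries only and hairpin counts, and 2 with limma. Without the e13.5 wild-type library the sign turned for miR-467c-5p, miR-466a-3p, miR-669a-3p and the 3p sums of miR-466 and miR-669, none of which passed. Over the fits without 1 library these ran from −0.60 to 0.92, −0.36 to 1.87, −0.90 to 1.498, −0.12 to 1.30 and −0.39 to 1.34. In adults the number of members lower in the knockout ran from 0 to 2, and miR-467a-5p ran from −0.18 to 0.68. The number with a positive difference between stages in the genotype effect ran from 0 to 2, and miR-669a-5p (−0.33) turned to 0.49 with library totals and 0.0497 with a minimum count of 50. At e13.5, 3 members were at least 4-fold lower when 50 counts were required, and 2 were at least 4-fold higher with library totals. The cause of these changes was not tested.

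Adult replicates share numbers across genotypes. The deviations of same-numbered libraries had a correlation of 0.00205 between the genotypes. A single pair of libraries per genotype cannot decide what a shared number stands for, and a shared preparation or batch was not tested. With the replicate number as a block, 0 members passed and 2 miRNAs in all did, against 4 without it.

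Depth limits rare members. A count of 0 in the e13.5 knockout allows up to 1.12 CPM, above the adult level of many members. At e13.5 each genotype has 1 library.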
